A study of Mus musculus with 17 samples.

Results

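The 7 genes of the platelet-derived growth factor (PDGF) family were followed in mouse pancreatic stellate cells. They were chosen by name, as 4 ligand genes (Pdgfa, Pdgfb, Pdgfc and Pdgfd), both receptor genes (Pdgfra and Pdgfrb) and the receptor-like gene Pdgfrl. These are 7 of the 35896 gene IDs in the count files, and 7 of 7 passed the low-count filter, which left 13923 genes for testing. Stellate cells are resident fibroblast-like cells of the pancreas. Wild-type C57BL/6J cells of the lines PSC4 and PSC5 were embedded in Matrigel, a basement membrane gel, and kept for 4 days in 1 of 4 media, which gave 17 RNA libraries. The control medium had 5 libraries (3 of PSC4 and 2 of PSC5). TGF-beta at 20 ng/mL, medium conditioned by pancreatic tumour organoids (CM), and CM to which 300 nM of the ERBB kinase inhibitor neratinib was added had 4 libraries each (2 of each line). Each group was thus a treatment of the same pair of cultured lines, at passages 23 to 25 for PSC4 and 27 to 28 for PSC5. The PSC4 passages differed by group: 23 to 25 in control medium, 24 and 25 with TGF-beta, and 23 and 24 with CM, without or with neratinib. The TGF-beta group thus had no PSC4 replicate 1, which is passage 23. Replicate numbers go with passages of the same lines in the labels, which name no separate animals, so the p-values measure only the spread between passages of these lines, part of which may be technical.

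PDGF ligands are secreted dimers of disulphide-linked chains that bind and pair the receptor tyrosine kinases PDGFRα and PDGFRβ. The A and B chains are processed inside the cell, whereas the C and D chains leave it with a CUB domain that extracellular proteases must cut away before the receptor is bound. PDGFRα binds the A, B and C chains, PDGFRβ binds mainly B and D, and PDGF is known as a mitogen and attractant for stellate cells and other mesenchymal cells.

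Totals of the libraries lay between 22168953 and 29421447 rounded counts. Levels are given as CPM, library-size-scaled counts, after TMM scaling, which corrects each total for differences in composition, and 3 counts corresponded to 0.101 to 0.137 CPM. The fibroblast and stellate markers summed to 4249 CPM or more in every library, and 10 of 10 were detected, although desmin (Des), a classical stellate marker, was low at 0.584 to 3.71 CPM. The endothelial marker Cldn5, the pericyte marker Higd1b and the immune markers Adgre1 and Cd3e were at 0 counts in every library. Other genes of these lists were detected: 7 of 8 pericyte and mural genes, with Notch3 at 81.6 and Mcam at 35.0 CPM in control medium, 7 of 8 endothelial genes, which summed to 5.62 to 13.3 CPM, and the macrophage gene Cd68 at 1.37 to 12.3 CPM. The immune list summed to 13.5 CPM in the CM plus neratinib library PSC4 replicate 1, and to no more than 3.72 CPM in any other library. The mesothelial gene Msln ranged from 0.150 to 56.8 CPM. Epithelial markers summed to 14.8 to 23.4 CPM in control and TGF-beta libraries, but to 140 to 311 CPM in the 4 libraries whose conditioned medium carried the code T6, and to 9.70 to 50.2 CPM in the 4 coded T8. The labels do not say what these codes mean, and T6 always went with replicate 2. One doubt about the labels bears on the results. On the third principal component of log2 CPM the libraries with the label PSC4 replicate 1, in control medium (37.0), CM (23.8) and CM plus neratinib (1.76), lay with the PSC5 libraries of their media and apart from the other PSC4 libraries, which were at -56.8 to -19.7. These 3 libraries stayed in the analysis, and the calls and list counts that changed without them are given both ways.

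Per GENCODE M21 on GRCm38, Pdgfa lies at chr5:138976014-138997370 (minus strand), Pdgfb at chr15:79995874-80014977 (minus), Pdgfc at chr3:81036416-81214040 (plus), Pdgfd at chr9:6168584-6378850 (plus), Pdgfra at chr5:75152292-75198215 (plus) and Pdgfrl at chr8:40926212-40990785 (plus).  Annotated antisense genes share exon bases with Pdgfa (813 bases), Pdgfc (147) and Pdgfra (456 and 166), and whether strand was used in the counting is not given in the sources used here. If it was not used, sense and antisense reads cannot be told apart in those shared bases. None of these antisense genes is among the gene IDs in the count files.

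The RefSeq promoter table for GRCm38.p6 held 4 of the 7 genes. The 250 bases before the start of 1 gene that rose with TGF-beta (Pdgfc) and of both genes that fell (Pdgfra and Pdgfd) are given next, 5′ to 3′ on the gene's own strand, because these 3 genes responded to the same medium in opposite directions. Capitals mark matches on either strand to CAGAC, the SMAD box, or to TATAAA, the TATA box; the AP-1 site TGANTCA and the SP1 site GGGCGG were searched as well and were found in none of the 3. The windows are chr3:81036166-81036415 for Pdgfc, chr5:75152001-75152250 for Pdgfra and chr9:6168236-6168485 for Pdgfd.
Pdgfc: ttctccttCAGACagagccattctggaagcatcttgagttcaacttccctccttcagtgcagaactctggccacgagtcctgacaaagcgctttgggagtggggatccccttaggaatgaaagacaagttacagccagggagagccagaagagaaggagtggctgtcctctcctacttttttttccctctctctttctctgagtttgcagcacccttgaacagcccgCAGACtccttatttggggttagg
Pdgfra: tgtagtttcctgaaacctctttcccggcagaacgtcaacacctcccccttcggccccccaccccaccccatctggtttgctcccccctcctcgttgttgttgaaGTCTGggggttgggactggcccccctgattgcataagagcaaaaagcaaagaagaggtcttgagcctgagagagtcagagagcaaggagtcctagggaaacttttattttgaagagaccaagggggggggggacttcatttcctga
Pdgfd: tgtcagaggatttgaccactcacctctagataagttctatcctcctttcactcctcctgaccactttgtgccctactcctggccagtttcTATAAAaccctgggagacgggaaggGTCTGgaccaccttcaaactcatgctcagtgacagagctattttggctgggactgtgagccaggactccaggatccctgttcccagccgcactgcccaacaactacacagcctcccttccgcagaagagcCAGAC
CAGAC occurred at 2 places before Pdgfc, at 1 before Pdgfra and at 2 before Pdgfd, and 1 TATAAA stood before Pdgfd. Of all 32851 windows of this length, 42.2% held CAGAC, 12.4% TATAAA, 32.7% GGGCGG and 6.75% TGANTCA, so the SMAD box was common in windows of this length. GC content was 50.8% for Pdgfc, 54.4% for Pdgfra and 53.6% for Pdgfd, against a median of 52.4%. The window of Pdgfa overlaps exons of the gene itself and is not printed. It had 72.4% GC and 2 matches to GGGCGG.

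TGF-beta, the classical inducer of the myofibroblast state, was compared with control medium first. Pdgfb rose about 16.5-fold, Pdgfc 7.82-fold, Pdgfrl 5.40-fold and Pdgfa 4.45-fold, while Pdgfra fell to 0.358 and Pdgfd to 0.412 of the control level. At an adjusted p-value under 0.05, 4 of the 7 passed as higher and 2 as lower. Over all genes tested 40.2% were called in this comparison, 19.7% higher and 20.5% lower. The median log2 fold change was 2.15 over the 7 genes and -0.02 over all genes. RNA was taken from whole cultures, so fewer cells of a kind and less RNA per cell cannot be told apart here or below.

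**Figure D1:**
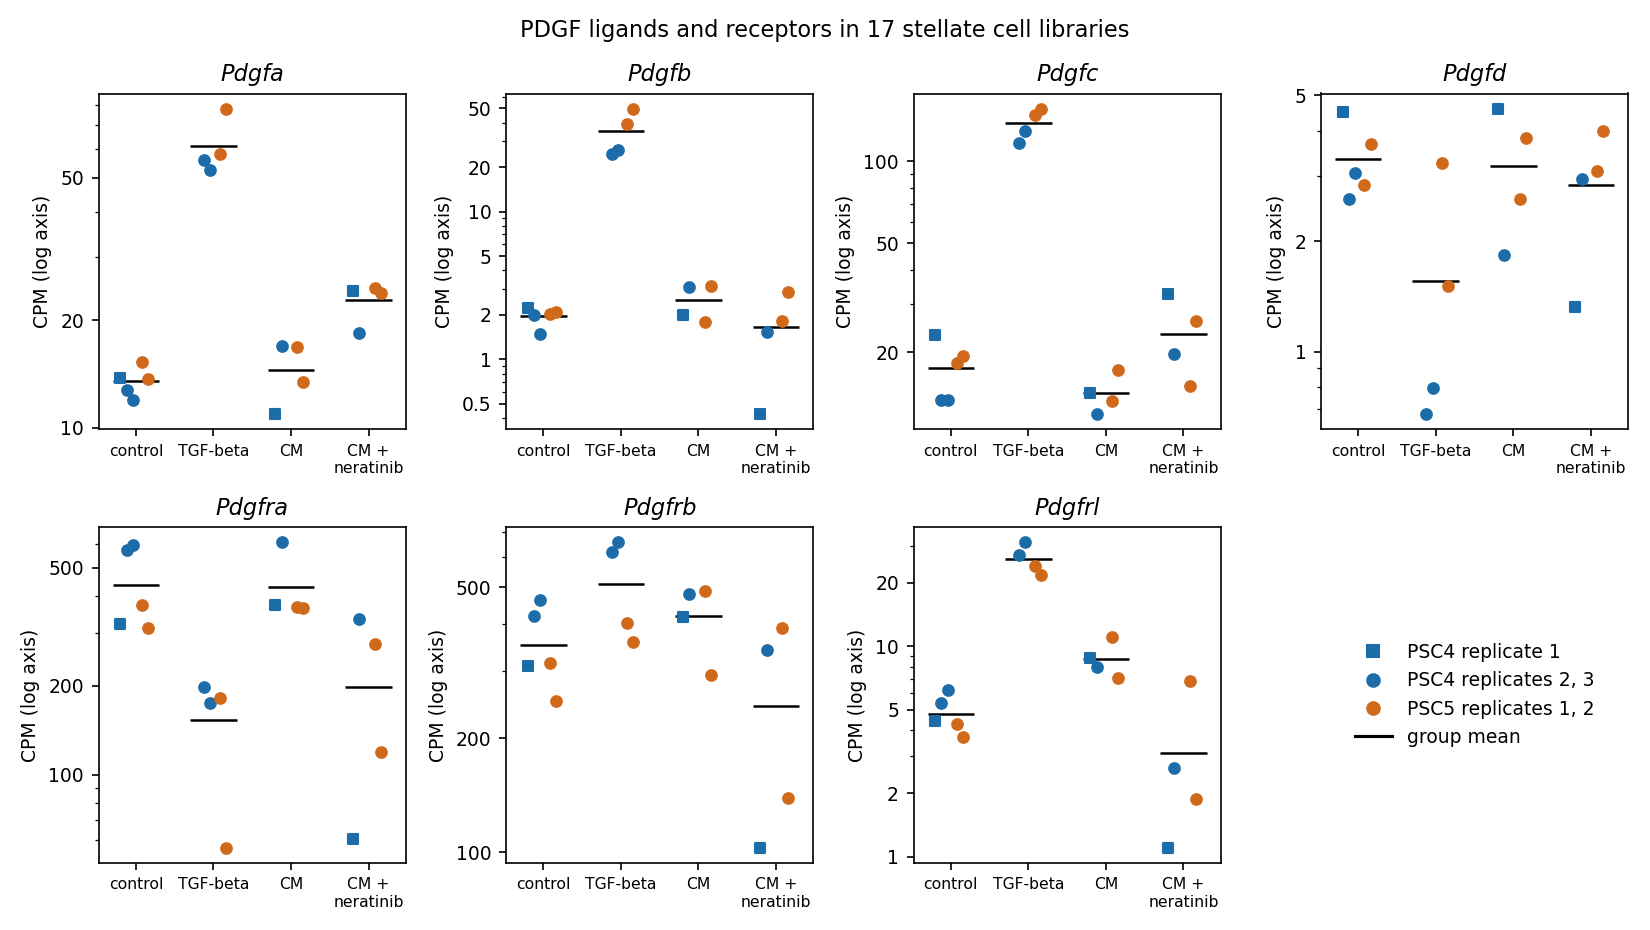
CPM of each of the 7 genes in every library (vertical log axis, a separate scale for each gene) for the 4 media; squares are the 3 libraries labelled PSC4 replicate 1, circles the others, blue PSC4, orange PSC5, and the bar the group mean. With TGF-beta all 4 libraries lie above every other library for Pdgfa, Pdgfb, Pdgfc and Pdgfrl, and in control medium Pdgfra lies between 312 and 596 CPM.

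Pdgfb, the B chain that binds both receptors, was scarce without TGF-beta. Its control libraries held 2.23, 2.00 and 1.48 CPM in PSC4 (replicates 1, 2 and 3) and 2.01 and 2.09 CPM in PSC5 (replicates 1 and 2). With TGF-beta it reached 24.4 and 25.9 CPM in PSC4 (replicates 2 and 3) and 39.5 and 49.7 CPM in PSC5. No library of one group came near the other, and both PSC5 libraries were above both PSC4 libraries. The means were 1.96 ± 0.284 (SD, n = 5) and 34.9 ± 11.98 CPM (SD, n = 4). On the log2 scale the difference was 4.05 ± 0.32 (SE; edgeR quasi-likelihood test, adjusted p = 2.78e-07).

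Pdgfc, a latent CUB-domain ligand of PDGFRα, had the highest level per kilobase of the 4 ligands in the TGF-beta group. It went from 23.1, 13.3 and 13.3 CPM in PSC4 and 18.3 and 19.3 CPM in PSC5 under control medium to 117 and 129 CPM in PSC4 and 148 and 156 CPM in PSC5. The groups were far apart in both lines. On the log2 scale the rise was 2.97 ± 0.21 (SE; edgeR adjusted p = 1.14e-07).

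Pdgfa, whose chain binds PDGFRα alone, had control values close together, at 13.5 ± 1.24 CPM (SD, n = 5). These were 13.8, 12.7 and 11.98 CPM in PSC4 and 15.3 and 13.7 CPM in PSC5, against 56.1 and 52.6 CPM in PSC4 and 58.1 and 77.9 CPM in PSC5 with TGF-beta. The library of PSC5 replicate 2 was the highest of its group, and the groups did not overlap. This was a rise of 2.15 ± 0.13 on the log2 scale (SE; edgeR adjusted p = 2.02e-08).

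Pdgfd, the latent ligand that binds mainly PDGFRβ, moved the other way and at low level. Control libraries held 4.49, 2.61 and 3.07 CPM in PSC4 and 2.84 and 3.69 CPM in PSC5; with TGF-beta the PSC4 libraries held 0.676 and 0.795 CPM (18 and 22 counts) and the PSC5 libraries 3.27 and 1.505 CPM. The groups overlapped, because PSC5 replicate 1 stayed within the control range. The log2 fold change was -1.28 ± 0.42 (SE; edgeR adjusted p = 0.0236). The call was lost without the TGF-beta library PSC4 replicate 2 (adjusted p = 0.0913), PSC4 replicate 3 (0.0897) or PSC5 replicate 2 (0.0572), and the adjusted p ranged from 0.00266 to 0.0913 over all 17 alternatives.

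Pdgfra, the α receptor and a usual fibroblast marker, fell. In control medium it stood at 322, 576 and 596 CPM in PSC4 and at 373 and 312 CPM in PSC5. With TGF-beta it stood at 198 and 174 CPM in PSC4 and at 182 and 56.7 CPM in PSC5. The groups did not overlap, and the lowest library was PSC5 replicate 2. The fitted log2 change was -1.48 ± 0.44 (SE; edgeR adjusted p = 0.0138), and the call held in 17 of 17 alternatives (adjusted p 0.000427 to 0.0403).

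Pdgfrb, the β receptor of pericytes and activated fibroblasts, was not called. The gene lies on chromosome 18. Its levels were 309, 419 and 462 CPM in PSC4 and 316 and 251 CPM in PSC5 under control medium, and 619, 656, 402 and 359 CPM in the same order of lines with TGF-beta. Within each line both TGF-beta libraries were above all control libraries, but over both lines the groups overlapped. The log2 fold change was 0.55 ± 0.33 (SE; edgeR adjusted p = 0.201), with a 95% interval of -0.15 to 1.25. With only the control and TGF-beta groups in the fit it was 0.58 with an adjusted p of 0.00548, and over the 17 alternatives the adjusted p ranged from 0.00548 to 0.379.

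Pdgfrl encodes a secreted protein that resembles the receptor's outer part and lacks a kinase. It rose from 4.41, 5.40, 6.17, 4.27 and 3.69 CPM in the control libraries to 27.01 and 31.2 CPM in PSC4 and 24.03 and 21.8 CPM in PSC5. No values overlapped, and PSC4 was somewhat above PSC5 in the TGF-beta group. Its log2 fold change was 2.43 ± 0.36 (SE; edgeR adjusted p = 8.84e-05).

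Among markers of mural cells, Cspg4 and, by less, Mcam had higher means with TGF-beta. The pericyte and mural list (8 genes, 7 detected) summed to 90.7 to 145 CPM in control libraries and 144 to 217 CPM with TGF-beta. The mean went from 3.67 to 62.3 CPM for Cspg4 and from 35.0 to 52.9 CPM for Mcam, but from 81.6 to 79.9 CPM for Notch3, from 2.58 to 1.32 CPM for Rgs5 and from 0.595 to 0.205 CPM for Myh11. Fibroblast markers summed to 4634 to 6554 CPM in control and 9636 to 20048 CPM with TGF-beta, but not every gene of that list rose. The mean went from 1751 to 7751 CPM for Col1a1, from 855 to 2595 CPM for Col1a2 and from 1441 to 3047 CPM for Col3a1. It also went from 1034 to 1431 CPM for Vim, and was higher for Lum, Thy1 and Fap. It went from 181 to 50.5 CPM for Dcn and from 198 to 164 CPM for Pdpn, and was lower for Des. The part of either list in the results above was not tested.

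Conditioned medium was then compared with control medium. None of the 7 genes was called, against 14.2% of all genes tested (7.05% higher and 7.14% lower). With the unadjusted p under 0.05 there was 1 gene, Pdgfrl, and DESeq2 also called 0. The median log2 fold change of the 7 genes was 0.09, and that of all genes was 0.00 at 2 decimals. Means in CM were 14.5 ± 2.87 CPM for Pdgfa, 2.51 ± 0.704 for Pdgfb, 14.1 ± 2.26 for Pdgfc, 3.21 ± 1.23 for Pdgfd, 430 ± 120 for Pdgfra and 419 ± 89.5 for Pdgfrb (SD, n = 4 each), and the ranges of these 6 genes overlapped those of the controls. The interval of the log2 fold change ran from -0.19 to 0.36 for Pdgfa and from -0.87 to 0.92 for Pdgfra, so changes of the size seen with TGF-beta lay outside it for both.

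Pdgfrl was the 1 gene whose groups did not overlap. Its CM libraries held 8.80 and 7.97 CPM in PSC4 and 11.1 and 7.04 CPM in PSC5, each above the highest control at 6.17 CPM. Its log2 fold change was 0.85 ± 0.36 (SE; edgeR adjusted p = 0.126). With line and replicate number as a block, which pairs libraries that share both, it was 0.95 with an adjusted p of 0.0370, and with only these 2 groups in the fit it was 0.89 with an adjusted p of 0.0116; the range over 17 alternatives was 0.0116 to 0.296. Pdgfb was split by medium code within CM, at 3.11 and 3.12 CPM in the T6 libraries and 2.00 and 1.80 CPM in the T8 libraries, with the epithelial sums above at their highest in T6; this split was not tested.

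Adding neratinib to CM changed 3 of the 7 genes relative to CM alone, with Pdgfa and Pdgfc higher and Pdgfrl lower. Without the libraries labelled PSC4 replicate 1 only Pdgfa of the 3 was called. Over all genes 20.5% were called, 10.8% higher and 9.63% lower. Pdgfa was at 10.9 and 16.9 CPM in PSC4 and 16.8 and 13.4 CPM in PSC5 with CM, and at 24.1 and 18.4 CPM in PSC4 and 24.6 and 23.9 CPM in PSC5 with neratinib. Its groups did not overlap, and the lowest neratinib library was PSC4 replicate 2. The log2 fold change was 0.65 ± 0.13 (SE; edgeR adjusted p = 0.00458), and the call held in 15 of 16 alternatives; with only the 2 groups in the fit the adjusted p was 0.0627, and the range over all 16 was 0.000139 to 0.0627.

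Pdgfc was at 14.1, 11.9, 13.3 and 17.2 CPM with CM and at 32.7, 19.7, 15.002 and 26.03 CPM with neratinib (PSC4 replicates 1 and 2, then PSC5 replicates 1 and 2). PSC5 replicate 1 lay within the CM range and PSC4 replicate 1 stood highest. Its log2 fold change was 0.74 ± 0.22 (SE; edgeR adjusted p = 0.0316). Without the 3 libraries labelled PSC4 replicate 1 it was 0.53 (adjusted p = 0.0538). The call was lost in 7 of 16 alternatives, 5 of which left out a single library: CM PSC4 replicate 1 (adjusted p = 0.0668), CM PSC4 replicate 2 (0.0872), CM PSC5 replicate 1 (0.0746), neratinib PSC4 replicate 1 (0.113) and neratinib PSC5 replicate 2 (0.0852). The adjusted p over the 16 ranged from 0.0041 to 0.118.

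Pdgfrl fell to 1.11 and 2.65 CPM in PSC4 and 6.83 and 1.88 CPM in PSC5. Each was below the lowest CM library at 7.04 CPM, although PSC5 replicate 1 was close to it. The fitted log2 change was -1.496 ± 0.39 (SE; edgeR adjusted p = 0.0153). Without the libraries labelled PSC4 replicate 1 it was -1.20 (adjusted p = 0.0517), and without the neratinib library PSC5 replicate 2 it was -1.32 (0.0508); the range over 16 alternatives was 0.00011 to 0.0887.

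Neither receptor was called in the main fit, which did not pair libraries by number, but both were lower in each line's mean. Pdgfra stood at 374, 610, 370 and 366 CPM with CM and at 60.5, 336, 276 and 119 CPM with neratinib, in the order above, with no overlap. Pdgfrb stood at 417, 479, 488 and 294 CPM with CM and at 103, 341, 390 and 139 CPM with neratinib, with overlap. For both receptors PSC4 replicate 1 and PSC5 replicate 2 were far below the other neratinib libraries. The log2 fold changes were -1.09 ± 0.45 (edgeR adjusted p = 0.0975) for Pdgfra and -0.76 ± 0.35 (0.138) for Pdgfrb, with SE. With the replicate block these became -1.34 (adjusted p = 0.00664) and -0.91 (0.0169). They were also called when PSC4 replicate 1 was counted with PSC5 (-1.17, adjusted p = 0.0249, and -0.82, 0.0498) and when the neratinib library PSC5 replicate 1 was left out (-1.44, 0.0387, and -1.23, 0.0118). Over the 16 alternatives the adjusted p lay between 0.00664 and 0.222 for Pdgfra and between 0.0118 and 0.318 for Pdgfrb. The same 2 low libraries were also the lowest on the second principal component, at -84.1 and -46.9 against -25.6 and -17.2 for the other neratinib libraries; pericyte and mural markers summed to 63.7 to 82.9 CPM with CM and 27.1 to 79.8 CPM with neratinib. The part of either in the values was not tested.

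Pdgfb and Pdgfd were not called. With neratinib Pdgfb ranged from 0.426 CPM (10 counts, PSC4 replicate 1) to 2.84 CPM and Pdgfd from 1.32 CPM (the same library) to 3.99 CPM. The log2 fold change was -0.69 ± 0.34 for Pdgfb (SE; edgeR adjusted p = 0.171) and -0.24 ± 0.41 for Pdgfd (0.730). Without the libraries labelled PSC4 replicate 1 the Pdgfd value was 0.33.

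**Figure D2:**
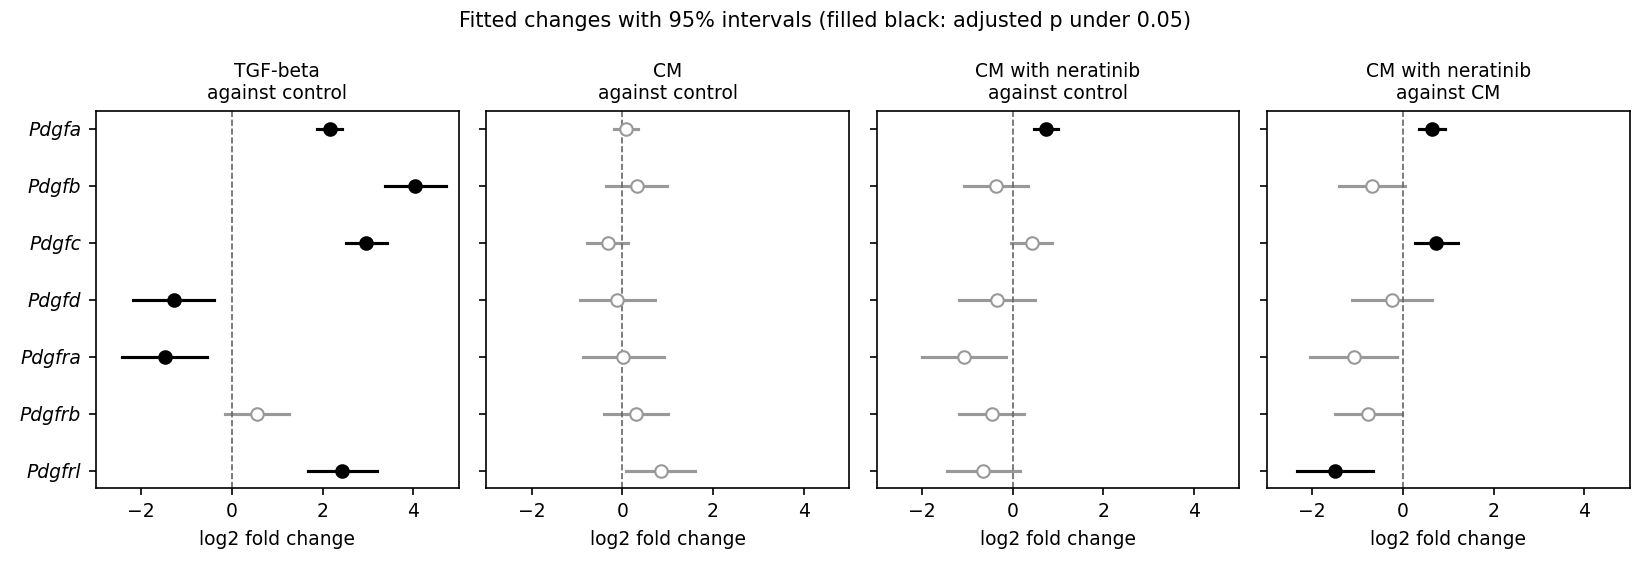
Log2 fold change of each gene with its 95% interval (edgeR) in 4 comparisons; filled black points were called at an adjusted p under 0.05. Points to the right of 0 are higher in the first-named group: 4 filled points lie there and 2 lie left of 0 for TGF-beta against control, and none is filled for CM against control.

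Against control medium, CM with neratinib left 1 gene called, Pdgfa, while 43.1% of all genes tested were called (22.2% higher and 20.9% lower). Pdgfa was higher in 4 of 4 libraries, from 18.4 CPM upwards against a control maximum of 15.3 CPM (log2 fold change 0.73 ± 0.13, SE; edgeR adjusted p = 0.000464). Pdgfra was at -1.06 ± 0.43 (SE; adjusted p = 0.0598), and it was called with the replicate block (-1.19, 0.00539), with DESeq2 (-1.05, 0.0389) and in 3 other alternatives, 1 of them without the neratinib library PSC4 replicate 2 (-1.39, 0.0386), over a range of 0.00539 to 0.142. Pdgfc was called without the control library PSC4 replicate 1 (0.56, 0.0401). Without the neratinib library PSC5 replicate 1, Pdgfc (0.60, adjusted p = 0.0171), Pdgfra (-1.39, 0.0243), Pdgfrb (-0.90, 0.0252) and Pdgfrl (-1.35, 0.000853) were called beside Pdgfa. Control libraries serve in 3 of these comparisons and CM libraries in several, so the comparisons are not independent of each other.

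Set directly against TGF-beta, CM gave 2 genes higher and 4 lower, where 35.3% of all genes were called (17.8% higher and 17.5% lower). Pdgfb (-3.73 ± 0.34, SE; edgeR adjusted p = 1.32e-06), Pdgfc (-3.28 ± 0.24, 1.36e-07), Pdgfa (-2.07 ± 0.14, 7.06e-08) and Pdgfrl (-1.58 ± 0.37, 0.00407) were lower in CM, and Pdgfra (1.51 ± 0.45, 0.0172) and Pdgfd (1.17 ± 0.43, 0.0446) were higher. Only Pdgfd among these 6 had overlapping groups, and its call was lost with the replicate block (0.98, adjusted p = 0.103), without the libraries labelled PSC4 replicate 1 (0.79, 0.0905), and in 9 of 16 alternatives in all. Among these were the fits without TGF-beta PSC4 replicate 2 (adjusted p = 0.140), PSC4 replicate 3 (0.137) or PSC5 replicate 2 (0.0930) and without CM PSC4 replicate 1 (0.157) or PSC5 replicate 2 (0.0795). Pdgfrb did not pass (-0.25 ± 0.35, adjusted p = 0.614).

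Levels of different genes can be compared only per length, here as CPM per kilobase of annotated exons. All annotated exons of a gene were merged, which gave 10024 bases for Pdgfra and 5478 for Pdgfrb. On this scale Pdgfrb was the most abundant of the 7 in all 4 media, at 64.2 ± 15.8 CPM per kilobase in control medium (SD, n = 5), 92.9 ± 27.4 with TGF-beta, 76.6 ± 16.3 with CM and 44.4 ± 26.2 with neratinib (SD, n = 4). Pdgfra came next at 43.5 ± 13.9 in control, 42.9 ± 11.99 with CM and 19.7 ± 12.9 with neratinib. In CPM, before division by length, Pdgfra had the higher mean of these receptors in control (436 against 351) and CM (430 against 419). Pdgfrb had it with TGF-beta (509 against 153) and neratinib (243 against 198). The order of these receptors in control and CM thus rests on the lengths used. With TGF-beta Pdgfra was at 15.2 ± 6.46 CPM per kilobase, behind Pdgfrb, Pdgfc (27.03 ± 3.46) and Pdgfa (19.6 ± 3.65). The ranges of Pdgfra (5.65 to 19.7) and Pdgfa (16.9 to 24.98) overlapped there, so these neighbours did not differ beyond their spread. Pdgfb was lowest of the 7 in control, CM and neratinib libraries (0.472, 0.602 and 0.397 CPM per kilobase), but reached 8.38 ± 2.88 with TGF-beta, level with Pdgfrl (8.32 ± 1.30); Pdgfd was then lowest at 0.495 ± 0.379. In control, CM and neratinib libraries the ranges of Pdgfra and Pdgfrb overlapped, although within every single library Pdgfrb was at least 1.33 times Pdgfra per kilobase. The ranges of Pdgfa (4.33 ± 0.398) and Pdgfc (3.43 ± 0.823) overlapped in control medium.

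**Figure D3:**
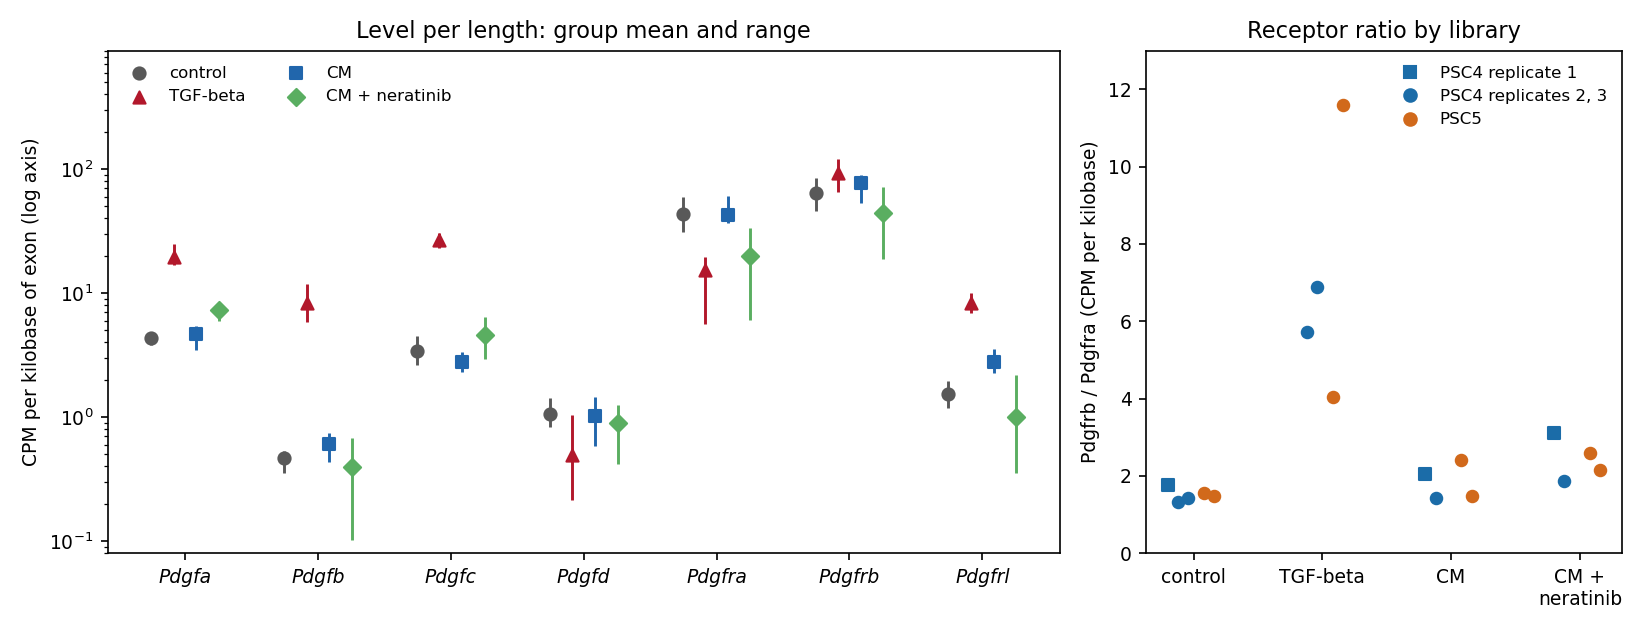
Left, mean CPM per kilobase of exons with the range over libraries for each gene and medium (log axis); right, the ratio of Pdgfrb to Pdgfra per kilobase in each library. The ratio lies between 1.33 and 1.76 in control medium and between 4.05 and 11.6 with TGF-beta.

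The balance of the receptors is given by the ratio of Pdgfrb to Pdgfra per kilobase within each library, as a description with no test. The size of this ratio depends on the exon lengths used, but the order of the libraries does not. It was 1.76, 1.33, 1.42, 1.55 and 1.47 in the control libraries and 5.73, 6.89, 4.05 and 11.6 in the TGF-beta libraries. CM libraries gave 2.04, 1.44, 2.41 and 1.47, and neratinib libraries 3.12, 1.86, 2.58 and 2.14. Every TGF-beta library was thus above every other library, while CM overlapped both control and neratinib. Neratinib libraries lay above the control range, and in each of the 4 pairs of the same line and number the ratio was higher with neratinib than with CM alone. In CM the T8 libraries (2.04 and 2.41) lay above the T6 libraries (1.44 and 1.47), and so they did with neratinib (3.12 and 2.58 against 1.86 and 2.14). T8 always went with replicate 1. In control medium, which had no such code, replicate 1 also lay above replicate 2 (1.76 against 1.33 in PSC4, 1.55 against 1.47 in PSC5). With TGF-beta, PSC5 replicate 1 (4.05) lay below replicate 2 (11.6). The part of the code was not tested.

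Whether the lines differed was asked next. No gene of the 7 was called between PSC5 and PSC4 over all media, against 6.97% of all genes (2.18% higher and 4.78% lower; edgeR), with 2 at an unadjusted p under 0.05 (Pdgfa and Pdgfb) and 0 called by DESeq2. This depended on the doubted libraries: without those labelled PSC4 replicate 1, Pdgfc (0.32, adjusted p = 0.0318) and Pdgfd (0.72, 0.0364) were higher in PSC5, and Pdgfra (-0.72, 0.0215) and Pdgfrb (-0.55, 0.0390) lower, while calls over all genes went from 970 to 5980. In edgeR tests of whether a medium's effect differed between the lines, 0 of the 7 and 0 of all genes were called, for TGF-beta, CM or neratinib. At an unadjusted p under 0.05 there were 601, 43 and 237 of 13923 genes, and 1 of these was a family member, Pdgfd with TGF-beta. Each is a smaller share than the 0.05 that evenly spread p-values would give. The lack of calls thus does not show that the lines responded alike. These counts, and for TGF-beta the side of 0.05 on which the share lay, depended on the doubted labels. With the PSC4 replicate 1 libraries removed they were 1107, 222 and 211 of 14049 genes, with 2 genes called for TGF-beta and 1 family member again at an unadjusted p under 0.05 there. With those libraries counted as PSC5 they were 1128, 241 and 245, with 3 genes called for TGF-beta, and no family member for TGF-beta but 1 for neratinib. No family member was called either way. In the fit as labelled, the Pdgfd log2 fold change with TGF-beta was -2.20 ± 0.53 in PSC4 and -0.45 ± 0.52 in PSC5 (SE), and the adjusted p of the difference in the edgeR interaction test was 1.00.

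Around the ligands stand the proteases that release them and the proteins that bind them. The list counts for TGF-beta stand against 40.2% of all genes called. Of 9 tested genes of PDGF activation, 3 were higher and 2 lower with TGF-beta (3 and 3 without the libraries labelled PSC4 replicate 1). Plau, urokinase, reported to cut PDGF-D, was higher (0.94 ± 0.25 log2, SE; edgeR adjusted p = 0.00729), as was Furin, a proprotein convertase (0.70 ± 0.07, 2.68e-06). F3, tissue factor (-2.39 ± 0.32, 3.93e-05), and the convertase Pcsk6 (-2.84 ± 0.86, 0.0162) were lower. Plat, tissue plasminogen activator and the protease known to cut PDGF-C, was at 216 ± 40.4 CPM in control and 172 ± 29.7 CPM with TGF-beta and did not pass (adjusted p = 0.293). The list's median was -0.30, against -0.02 over all genes.

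Of the list of PDGF binding proteins and co-receptors, 4 of 9 were higher and 2 lower with TGF-beta (median 0.29), or 5 and 3 without the libraries labelled PSC4 replicate 1. Cspg4, the NG2 proteoglycan that binds PDGF-AA, went from 3.67 to 62.3 CPM (4.13 ± 0.34, SE; edgeR adjusted p = 4.77e-07), and is also a gene of the mural marker list. Itgb3, an integrin chain that associates with PDGFRβ, changed by 3.86 ± 0.30 (adjusted p = 2.38e-07), Lrp1, a co-receptor of PDGFRβ, by 1.30 ± 0.13 (3.09e-06), and Sparc, which binds the B chain, by 0.99 ± 0.16 (0.000217). Dcn, decorin, fell by 2.01 ± 0.43 (adjusted p = 0.0018) and Gas6, a ligand of the TAM receptors that the list also holds, by 4.05 ± 1.36 (0.0270). Gas6 varied widely in control medium (103 ± 132 CPM, SD, n = 5) and was lower in PSC5 than in PSC4 (-4.64 ± 0.96, SE; adjusted p = 0.0244). Nrp1, a co-receptor, did not pass (-0.22 ± 0.19, adjusted p = 0.383).

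With TGF-beta 7 of 22 receptor-proximal signalling genes were higher and 6 lower (median 0.10), or 8 and 8 without the libraries labelled PSC4 replicate 1, led by the kinase Fyn (0.50 ± 0.11, SE; edgeR adjusted p = 0.00292) and, downward, by Pik3r1, the regulatory subunit of PI3 kinase (-1.15 ± 0.18, 0.000138), and Stat5a (-0.90 ± 0.20, 0.00197). The adaptor Grb2 did not pass (-0.06, adjusted p = 0.684). Of 14 genes of receptor down-regulation, 3 were higher and 2 lower (median -0.09), or 4 and 2 without those libraries. The ubiquitin ligases Cbl (0.51) and Cblb (0.39) were among the higher, and Socs3 (-0.80) and Socs1 (-0.63) were the lower. Of 16 growth factor early response genes, a list not particular to PDGF, 5 were higher and 4 lower (median -0.14), or 6 and 4 without those libraries, with Egr2 (1.75) and the hyaluronan synthase Has2 (1.31) up and the chemokines Ccl2 (-3.15) and Ccl7 (-2.08) down.

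The sister receptors of class III and their ligands gave 0 higher and 3 of 5 tested lower with TGF-beta (median -0.50), or 2 lower without the libraries labelled PSC4 replicate 1. Kitl, stem cell factor, was at 92.9 ± 30.1 CPM in control and 17.4 ± 7.41 CPM with TGF-beta (log2 fold change -2.41 ± 0.27, SE; edgeR adjusted p = 8.45e-06). Csf1, the macrophage growth factor, was at 637 ± 61.8 and 231 ± 18.8 CPM (-1.48 ± 0.12, 2.78e-07). Their receptors Kit and Csf1r had means under 1 CPM in all media; Csf1r did not pass, and Kit did not pass the low-count filter.

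**Figure D4:**
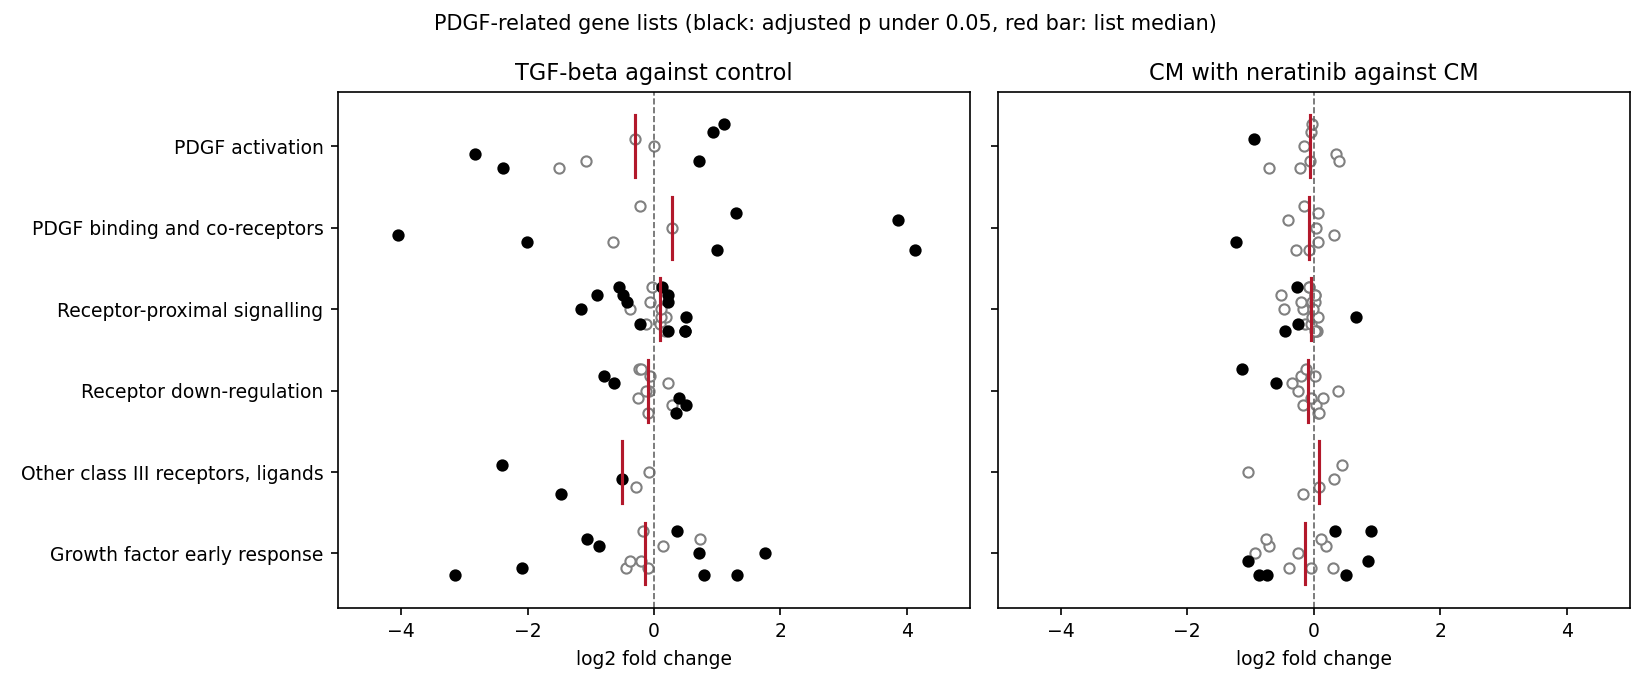
Log2 fold change of every tested gene of 6 lists around PDGF for TGF-beta against control and CM with neratinib against CM; black points were called (edgeR), grey were not, and the red bar is the list's median. For TGF-beta the class III list has 3 called genes, all below 0 (2 without the libraries labelled PSC4 replicate 1), and Cspg4 at 4.13 is the highest point of the binding list.

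For CM against control the list counts stand against 14.2% of all genes called. Dcn was higher (3.03 ± 0.41 log2, SE; edgeR adjusted p = 0.000407), at 181 CPM in control and 1537 CPM in CM, and Nrp1 lower (-1.25 ± 0.20, 0.00122), which made 2 of 9 binding genes, or 4 without the libraries labelled PSC4 replicate 1. Plau was lower (-0.88) among 9 activation genes, of which 2 were called, or 3 without the libraries labelled PSC4 replicate 1. Stat5a (0.86) and Stat3 (0.53) were higher and Plcg1 (-0.29) and Nck2 (-0.38) lower among 22 signalling genes, 4 in all, or 6 without those libraries. Of the down-regulation genes 4 of 14 were higher, including Socs3 (0.80) and the phosphatase Ptprj (0.71), which acts on PDGFRβ, and 1 was lower, Sh3kbp1 (-0.41); without those libraries 4 were higher and 2 lower. Early response genes gave 4 of 16 higher and 0 lower, led by Ccl2 (1.31) and Ccl7 (1.05), and 7 higher without the libraries labelled PSC4 replicate 1. Csf1 was the 1 class III gene called (-0.37).

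Neratinib added to CM, where 20.5% of all genes were called, left 1 activation gene called, Plat, at 182 ± 31.2 CPM in CM and 93.5 ± 36.4 CPM with neratinib (log2 fold change -0.95 ± 0.23, SE; edgeR adjusted p = 0.0110), and 1 binding gene, Thbs1, thrombospondin (-1.23 ± 0.34, 0.0216). Among signalling genes Fyn was higher (0.67 ± 0.12, adjusted p = 0.00234), and Rasa1 (-0.46), Stat5b (-0.26) and Shc1 (-0.25) were lower, 4 of 22 in all and 2 without the libraries labelled PSC4 replicate 1. Spry1 (-1.14 ± 0.30, adjusted p = 0.0154), an inhibitor of receptor kinase signalling, and Lrig1 (-0.59 ± 0.15, 0.0108) fell among 14 down-regulation genes; without those libraries 1 was higher and 2 were lower. Of the early response genes 4 of 16 were higher, including Fosl1 (0.90) and Ier3 (0.86), and 3 were lower, Egr1 (-1.04), Has2 (-0.86) and Ccl2 (-0.74); 4 in all were called without the libraries labelled PSC4 replicate 1. The medians of the 6 lists lay between -0.14 and 0.08. No class III gene was called by edgeR (0 of 5), and 1, Il34, chosen here after its value was seen, had an unadjusted p under 0.05.

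The genes most like each member were ranked by Pearson's r of log2 CPM over the 17 libraries among 9772 genes, as a description, since libraries share media and lines. Pdgfc was closest to Ndfip1 (r = 0.991), Alcam (0.983) and Tmsb10 (0.983). Pdgfa was closest to Ppp1r13l (0.976), Map4 (0.970) and Rab6a (0.964), and Pdgfb to Rflnb (0.969), Cnnm4 (0.960) and Mical2 (0.960). Pdgfd went with Ldhb (0.929), Arhgap29 (0.910) and Cpq (0.908). Pdgfra went with Mturn (0.969), the chemokine gene Cxcl12 (0.963) and Heg1 (0.960), and Pdgfrb with Vti1a (0.959), Kmt2e (0.959) and Bicc1 (0.943). Pdgfrl went with the growth factor Fgf2 (0.968) and Gpr153 (0.962). Within the family the highest r were those of Pdgfa with Pdgfc (0.939), Pdgfb with Pdgfc (0.871), Pdgfb with Pdgfrl (0.850), Pdgfa with Pdgfb (0.841) and Pdgfrb with Pdgfrl (0.817), and the lowest that of Pdgfa with Pdgfra (-0.712).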

How the data were processed

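RNA of 17 libraries was sequenced. Per the submitters' processing notes, Salmon 1.4.0, DESeq 2 and GRCm38 (mm10) were used; the annotation release and strand setting are not given in the sources used here. The authors deposited estimated counts per Ensembl gene, not scaled to depth or length, and 74.8% of values above 0 were not whole (tolerance 1e-06), so all were rounded.

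Groups came from the labels. Counts of all 17 libraries were fitted in 1 model (group and cell line) with the edgeR 4.0.16 quasi-likelihood test in R 4.3.3, TMM factors and filterByExpr by group (minimum count 10, total 15). Genes were called at a Benjamini-Hochberg adjusted p under 0.05 over 13923 genes; intervals are 95%. Counting floors (3 counts) cover counting error only. Log2 CPM used a prior count of 2. The test was checked on simulated data.

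Named genes were the 7 members, the 3 genes most like each (mean of at least 10 CPM), a fixed set and, per list and comparison, up to 2 called genes with the largest rise and 2 with the largest fall. The members and lists were chosen with earlier results of these data known. Some genes that this rule names are not reported here.

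Replicate numbers stand for passages in the labels. Group means, but not line differences, were removed before libraries were correlated. All 22 pairs of 1 line and 1 number were at 0.120 or more (median 0.299), above the limit of 0.1. Of 32 pairs of 1 line and other number, 14 were above it too (median -0.0756, range -0.536 to 0.613). Every other-number pair with a library labelled PSC4 replicate 1 was negative. With line differences left in, this comparison over all pairs cannot show whether the numbers pair libraries. Within PSC5, where the line is shared, CM and neratinib libraries were at 0.224 and 0.477 for the same number. For other numbers they were at -0.222 and -0.063. Those same-number pairs also share the medium code, and its part was not tested. Control and TGF-beta libraries of PSC5 overlapped, at 0.252 and 0.394 for the same number and 0.350 and 0.325 for other numbers. The main fit did not pair libraries by number, and the replicate block was an alternative. Alternatives were RLE or upper-quartile factors, no filter, DESeq2 1.42.0, a replicate block, only the 2 groups compared, the libraries labelled PSC4 replicate 1 removed or counted with PSC5, and each library left out. List counts without those libraries were added after seeing the data.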

Additional observations from a re-analysis of the deposited data

Results flagged for a closer look

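Of 28 groups of 4 or 5 libraries (7 genes in 4 media), 3 held a library whose gap to its nearest neighbour took most of the group's range by Dixon's criterion; chance flags about 1 in 20 groups. Pdgfa was lowest in the CM with neratinib library PSC4 replicate 2, at 18.4 CPM against 23.9 to 24.6 CPM in the other 3. Pdgfra was lowest in the TGF-beta library PSC5 replicate 2, at 56.7 CPM against 174 to 198 CPM. Pdgfra was highest in the CM library PSC4 replicate 2, at 610 CPM against 366 to 374 CPM.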

How the results depend on the processing

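Of 609 values of the 42 gene results under the alternatives, 547 kept direction and side of the threshold, 23 lost the call, 25 gained it and 14 changed sign; none of those 14 was called. The replicate block gave 3240 genes called for CM against control and 4563 for CM with neratinib against CM, and 1, 2 and 5 of the 7 genes for CM against control, CM with neratinib against control, and CM with neratinib against CM; the paired fit changed no call beyond those printed above. With PSC4 replicate 1 counted with PSC5, 2986 genes were called for CM against control and 6046 between the lines, and 2, 5 and 3 of the 7 genes for CM with neratinib against control, against CM, and between the lines. With those libraries removed, 5980 genes and 4 of the 7 were called between the lines, and 1 of the 7 for CM with neratinib against CM; the sign changed for Pdgfb (0.0307) and Pdgfd (0.0092) in CM with neratinib against control, Pdgfd in CM with neratinib against CM (0.33) and Pdgfrl between the lines (-0.12, and -0.18 when counted with PSC5). With only the 2 groups compared, 602 genes and 0 of the 7 were called for CM with neratinib against CM (edgeR), and 1 of the 7 for CM against control. DESeq2 called 2234 genes between the lines and 2 of the 7 for CM with neratinib against control. Upper-quartile factors gave Pdgfra -0.0167 in CM against control, and moved the share of calls that were higher from 49.7% to 37.5% there and from 51.4% to 41.1% for CM with neratinib against control. Leaving out 1 library gave 801 (without CM PSC5 replicate 1) to 1793 genes for CM against control, with 1204 and 1219 without control PSC5 replicate 1 or 2 and 1269 without CM PSC4 replicate 2, and 1748 (without neratinib PSC5 replicate 2; 1782 without CM PSC4 replicate 1) to 3685 for CM with neratinib against CM. The 7 genes then gave 1 to 5 calls for CM with neratinib against control and 1 to 5 against CM, the highest in both without neratinib PSC5 replicate 1; the lowest against CM was without neratinib PSC5 replicate 2, and 2 were called against control without control PSC4 replicate 1 or neratinib PSC4 replicate 2. In CM against control, leaving out 1 library gave log2 changes of both signs for Pdgfa (-0.0521 to 0.186), Pdgfd (-0.553 to 0.0949) and Pdgfra (-0.112 to 0.154), and so it did in CM with neratinib against CM for Pdgfd (-0.416 to 0.166). The causes were not tested. Depth limits Pdgfb and Pdgfd most, with 10 counts in 1 library for Pdgfb and 18 for Pdgfd.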
